A study of Mus musculus with 7 samples.

Results

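Rgs16 and its relatives of the RGS family (regulators of G protein signalling) were followed across 7 mouse arrays of transferred CD8 T cells. The set held 8 genes, Rgs1, Rgs2, Rgs3, Rgs10, Rgs14, Rgs16, Rgs18 and Rgs19, of 18194 genes named on the array. It comprised all 18 probe sets (groups of array probes that report a transcript) that carry 1 of these symbols and no other. Rgs16 was chosen by its measured log2 values, which rose in RIP-OVAhi cells, so these are given as a description with no test. The other 7 were chosen as family members, with earlier results of these data known. Of the 8 genes, 7 passed the filter on low values, which was log2 of at least 5 on at least 2 arrays. Rgs16 passed through its RIP-OVAhi arrays alone, and Rgs18 did not pass and was not tested. Leaving out Rgs16, 6 genes were tested.

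All arrays measured OT-I cells, CD8 T cells with a transgenic receptor for an ovalbumin peptide, which carried the marker Ly5.1 and entered the hosts as CD44lo cells labelled with CFSE, a dye diluted at each division. The hosts were C57BL/6 mice, whose ages are not given in the sources used here. The naive group (n = 2) was undivided cells recovered from the spleen of B6 hosts without ovalbumin at 60 h. The RIP-OVAhi group (n = 2), a model of deletional tolerance, was cells that had divided at least 2 times by 60 h in hosts in which the rat insulin promoter drives ovalbumin. These cells came from the sacral and pancreatic lymph nodes. The OCS/LPS group (n = 2), a model of immunity, was spleen cells divided to the same extent at 60 h in mice that had been primed with ovalbumin-coated splenocytes and lipopolysaccharide. The Rag group (n = 1) was spleen cells that had divided to that extent after 5 days in Rag-/- hosts, in which no T or B cells mature, so that transferred T cells proliferate in the empty space. Each array held cells pooled from 10 mice, or from 20 mice for RIP-OVAhi. Tissue cannot be told apart from group for RIP-OVAhi, nor can division for naive cells or time for Rag.

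RGS proteins act on the alpha subunits of heterotrimeric G proteins. A receptor such as a chemokine or sphingosine-1-phosphate receptor loads the alpha subunit with GTP, which frees it from the beta and gamma subunits to act on effectors. The RGS domain speeds up GTP hydrolysis and so shortens the signal. In lymphocytes the best-known role of the family is to set how strongly and for how long cells respond to chemokines, and several members are switched on when the cell is activated. Rgs16, Rgs1, Rgs3 and Rgs18 act mainly on alpha subunits of the Gi and Gq classes, Rgs2 is known for its preference for Gq, and Rgs10, Rgs14 and Rgs19 act on the Gi class.

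The stretch upstream of the start site is shown for Rgs16 and Rgs2, because both genes read higher in RIP-OVAhi than in OCS/LPS cells. RefSeq windows for GRCm38.p6 were found for 5 of the 8 genes (Rgs2, Rgs3, Rgs10, Rgs16 and Rgs19, 8 windows in all). The 250 bases before the start site are printed 5′ to 3′ on the gene's own strand, chr1:153740103-153740352 on the plus strand for Rgs16 and chr1:144004150-144004399 on the minus strand for Rgs2. Capitals mark matches, on either strand, to 6 motifs. The motifs were the GC box GGGCGG, the CCAAT box CCAAT, the TATA box TATAAA, the NFAT core GGAAA, the AP-1 site TGANTCA and the core TGACG of the cyclic AMP response element.
Rgs16: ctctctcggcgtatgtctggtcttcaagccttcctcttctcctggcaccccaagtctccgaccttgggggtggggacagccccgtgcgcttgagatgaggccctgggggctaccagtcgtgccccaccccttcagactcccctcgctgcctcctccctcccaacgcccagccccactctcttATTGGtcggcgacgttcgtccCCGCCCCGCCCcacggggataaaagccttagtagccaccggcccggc
Rgs2: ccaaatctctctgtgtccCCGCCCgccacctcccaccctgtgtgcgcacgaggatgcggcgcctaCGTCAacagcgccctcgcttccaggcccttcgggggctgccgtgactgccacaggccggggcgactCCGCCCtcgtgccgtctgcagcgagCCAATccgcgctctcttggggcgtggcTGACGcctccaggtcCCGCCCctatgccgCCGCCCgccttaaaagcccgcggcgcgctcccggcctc

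The Rgs16 window held 2 GC boxes, which overlap by 1 base, with their first bases 47 and 42 bases before the start site, and a CCAAT box at 68. The Rgs2 window held 4 GC boxes, a CCAAT box at 94 and 2 cyclic AMP response cores, at 185 and 67. Neither window held the letters of the NFAT core, the AP-1 site or the TATA box as searched. Among 32851 windows of the same length, 32.7% held a GC box, 33.8% a CCAAT box and 17.8% a cyclic AMP response core. The NFAT core was in 55.6%, the TATA box in 12.4% and the AP-1 site in 6.75% of them. G or C made up 66.4% of the window for Rgs16 and 72.4% for Rgs2, against a median of 52.4% over all windows. The share was 76.4% for Rgs10, 54.4% to 74.8% for Rgs19, and 48.4% and 56.8% for Rgs3. GC boxes were also in the Rgs10 window and in some windows of Rgs3 and Rgs19. These matches describe the letters and show neither binding nor a cause. On the RefSeq gene order of chromosome 1, Rgs2, Rgs13, Rgs1, Rgs21 and Rgs18 follow each other with no other protein-coding gene between them, and Rgs16 lies beside Rgs8 elsewhere on that chromosome.

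Values are log2 expression, on which 1 unit is a 2-fold change, and values under 5 are called near background. The array medians were 2.97 to 3.08. The 9 CD8 T cell markers on the array, Cd8a and Cd3e among them, were at 9.94 to 13.23 on all 7 arrays, as the label of the cells asks. The naive arrays were less alike than the others, with r = 0.975 across genes against 0.991 in both other pairs, and 347 genes more than 2-fold apart against 28 and 31. Replicate number went with sex-linked genes. The X inactivation transcript Xist read 2.67 to 2.74 for number 1 and 12.73 to 13.01 for number 2, so member differences within each number are given where they bear on a result.

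Rgs16 was high in RIP-OVAhi cells and near background in every other group. The probe set with the highest mean read 8.61 and 8.53 in RIP-OVAhi. It read 3.46 and 4.09 in naive, 3.64 and 3.43 in OCS/LPS and 3.33 in Rag. Both RIP-OVAhi arrays stood above all 5 others, and the values of naive, OCS/LPS and Rag lay close together below the near-background line. The RIP-OVAhi mean of 8.57 exceeded naive by 4.80, OCS/LPS by 5.04 and Rag by 5.24. Because the other groups were near background, the rise is better stated as a bound: RIP-OVAhi was at least 11.9-fold above log2 5. Among the arrays numbered 1, the differences were 5.15 from naive, 4.97 from OCS/LPS and 5.28 from Rag, and among those numbered 2 they were 4.44 from naive and 5.11 from OCS/LPS.

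The other probe sets of Rgs16 did not all follow. The next brightest read 6.29 and 6.24 in RIP-OVAhi and between 2.41 and 2.46 on the other 5 arrays, a bound of at least 2.41-fold above log2 5. The remaining probe set stayed between 2.20 and 2.33 on all 7 arrays and showed no signal in any group. In these pooled cell populations, more cells with the transcript and more transcript per cell cannot be told apart.

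**Figure D1:**
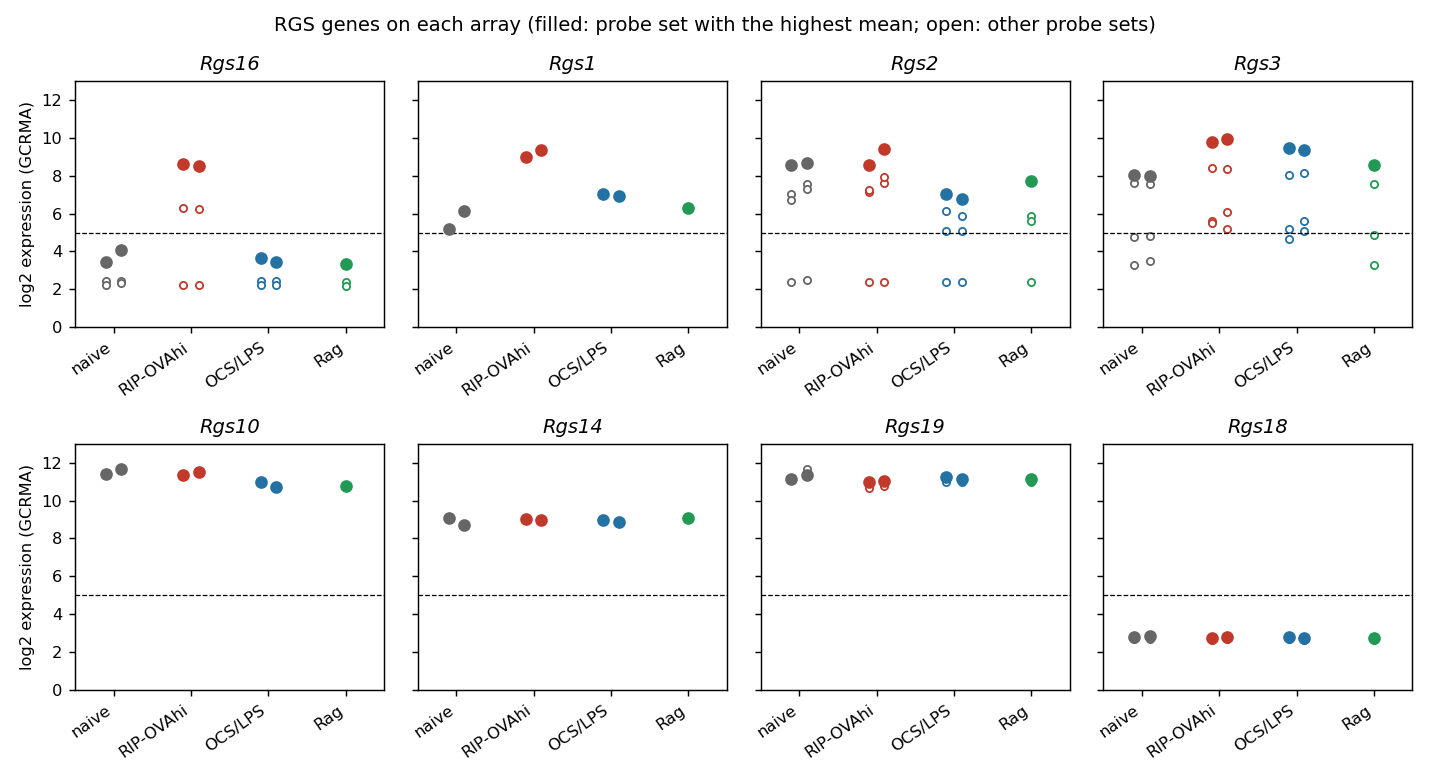
Log2 expression (GCRMA, vertical axis) of the 8 RGS genes on each array by group (horizontal axis; 2 arrays for naive, RIP-OVAhi and OCS/LPS, 1 for Rag); filled points are the probe set with the highest mean, open points the gene's other probe sets, and the dashed line is log2 5. By the filled points, Rgs16 is above the line in RIP-OVAhi alone, Rgs1 and Rgs3 are highest in RIP-OVAhi, and Rgs2 is lowest in OCS/LPS. Every Rgs18 point lies below the line on all 7 arrays.

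Rgs1 and Rgs3 rose in both antigen-driven groups. Rgs1, known as a brake on chemokine responses in activated B and T cells, read 5.16 and 6.14 on the naive arrays, 8.99 and 9.37 for RIP-OVAhi, 7.02 and 6.95 for OCS/LPS and 6.30 for Rag. The order of the groups was naive, Rag, OCS/LPS and RIP-OVAhi, with no overlap between arrays of different groups. Naive and Rag lay apart by 0.65, less than the 0.97 between the naive arrays.

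Rgs1 was higher in RIP-OVAhi than in naive cells by 3.54 (SE 0.32, 95% interval 2.74 to 4.33, limma adjusted p = 0.000988). The difference was 3.83 among the arrays numbered 1 and 3.24 among those numbered 2. OCS/LPS exceeded naive by 1.34 (SE 0.32, limma adjusted p = 0.0251), a call that was lost without either OCS/LPS array (adjusted p 0.133 and 0.128) or either RIP-OVAhi array (0.0619). RIP-OVAhi exceeded OCS/LPS by 2.20 (SE 0.32, 95% interval 1.40 to 2.99, limma adjusted p = 0.0275). That call was lost without any 1 of the 4 arrays compared (adjusted p 0.204 to 0.268), while the difference stayed between 2.01 and 2.39. RIP-OVAhi exceeded Rag by 2.88 (limma adjusted p = 0.00738), which missed the threshold without RIP-OVAhi replicate 1 (0.0520) or 2 (0.0679). Between OCS/LPS and Rag the difference of 0.69 (95% interval -0.29 to 1.66, limma adjusted p = 0.282) did not pass the test, though it did without either naive array (0.0486).

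Rgs3, a regulator of Gi and Gq signalling with long and short protein forms, read 8.02 and 7.97 on the naive arrays, 9.80 and 9.94 for RIP-OVAhi, 9.45 and 9.34 for OCS/LPS and 8.57 for Rag. The 4 groups did not overlap, with Rag between naive and OCS/LPS. Rgs3 rose over naive by 1.87 in RIP-OVAhi (SE 0.12, 95% interval 1.57 to 2.18, limma adjusted p = 0.000280) and by 1.40 in OCS/LPS (SE 0.12, 95% interval 1.10 to 1.70, limma adjusted p = 0.000710). Both calls held without each array in turn. RIP-OVAhi exceeded OCS/LPS by 0.47 (95% interval 0.17 to 0.78), and this did not pass the test over all genes (limma adjusted p = 0.138). RIP-OVAhi exceeded Rag by 1.30 (limma adjusted p = 0.00436) and OCS/LPS exceeded Rag by 0.83 (limma adjusted p = 0.0184). The last call was lost without either RIP-OVAhi array (0.0582), OCS/LPS replicate 1 (0.101) or OCS/LPS replicate 2 (0.0841).

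The 4 probe sets of Rgs3 gave different sizes. One read 3.30 and 3.51 on the naive arrays, 5.50 and 6.07 for RIP-OVAhi, 4.65 and 5.11 for OCS/LPS and 3.27 for Rag, with naive and Rag near background. Its measured differences from naive were 2.38 for RIP-OVAhi and 1.47 for OCS/LPS, while the RIP-OVAhi mean was 0.78 above log2 5. Another read 7.61 and 7.58 on the naive arrays, 8.42 and 8.36 for RIP-OVAhi, 8.04 and 8.14 for OCS/LPS and 7.54 for Rag, with smaller differences of 0.79 and 0.50. The last read 4.77 and 4.80 on the naive arrays, 5.58 and 5.19 for RIP-OVAhi, 5.21 and 5.61 for OCS/LPS and 4.86 for Rag. In a fit of all probe sets, 3 of the 4 passed in both comparisons with naive, and the last passed in neither (limma adjusted p = 0.0794 and 0.0638). The probe set at 3.30 and 3.51 in naive passed the filter through RIP-OVAhi and OCS/LPS arrays alone, and so did the last. In that fit none of the 4 differed between RIP-OVAhi and OCS/LPS past the threshold.

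Rgs2 moved the other way in primed cells. This Gq-preferring regulator read 8.58 and 8.66 on the naive arrays, 8.57 and 9.39 for RIP-OVAhi, 7.06 and 6.76 for OCS/LPS and 7.71 for Rag. Both OCS/LPS arrays and the Rag array were below all 4 naive and RIP-OVAhi arrays, and naive and RIP-OVAhi overlapped. Rgs2 fell by 1.71 in OCS/LPS against naive (SE 0.28, 95% interval -2.39 to -1.03, limma adjusted p = 0.00693). Without replicate 2 of OCS/LPS that p was 0.0679. RIP-OVAhi and naive differed by 0.36, which did not pass the test (95% interval -0.32 to 1.05, limma adjusted p = 0.371). Among the arrays numbered 1 that difference was -0.01 and among those numbered 2 it was 0.73.

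RIP-OVAhi exceeded OCS/LPS in Rgs2 by 2.07 (SE 0.28, 95% interval 1.39 to 2.75, limma adjusted p = 0.0222), and by 1.51 among the arrays numbered 1 and 2.63 among those numbered 2. The call was lost without RIP-OVAhi replicate 2 (1.66, adjusted p 0.0954), OCS/LPS replicate 1 (0.147) or OCS/LPS replicate 2 (0.231). RIP-OVAhi exceeded Rag by 1.27 without passing the test (limma adjusted p = 0.0559), but the adjusted p was 0.0443 with arrays centred on their medians, 0.0442 with a filter at log2 7, 0.0267 with the mean of its probe sets and 0.0381 without RIP-OVAhi replicate 1. Rag was below naive by 0.90, also short of the threshold (limma adjusted p = 0.247).

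The other bright probe sets of Rgs2 had the same order of OCS/LPS below naive and RIP-OVAhi. The second read 7.03 and 7.54 on the naive arrays, 7.12 and 7.60 for RIP-OVAhi, 6.14 and 5.89 for OCS/LPS and 5.85 for Rag. The third read 6.73 and 7.28 on the naive arrays, 7.25 and 7.95 for RIP-OVAhi, 5.08 and 5.10 for OCS/LPS and 5.63 for Rag. OCS/LPS was below naive by 1.71, 1.26 and 1.91 over the 3 probe sets, all past the threshold in the fit of all probe sets. RIP-OVAhi was above OCS/LPS in that fit by 2.07, 1.34 and 2.51, of which the second missed the threshold (limma adjusted p = 0.0663). RIP-OVAhi was above Rag in that fit by 1.27, 1.51 and 1.97, of which the second and the last passed (limma adjusted p = 0.0290 and 0.0203). Its remaining probe set was near background throughout, at 2.38 to 2.51.

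**Figure D2:**
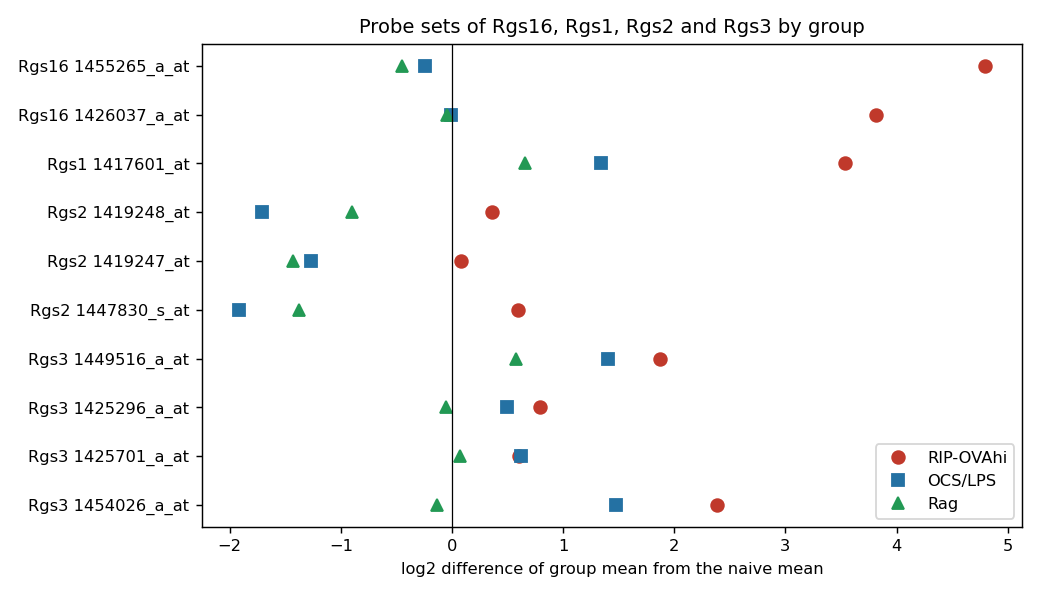
Difference of each group mean from the naive mean (log2, horizontal axis) for the 10 probe sets of Rgs16, Rgs1, Rgs2 and Rgs3 that reached log2 5 on at least 1 array (vertical axis, array identifiers); circles are RIP-OVAhi, squares OCS/LPS and triangles Rag. The 3 Rgs2 probe sets put OCS/LPS and Rag left of 0 and RIP-OVAhi at 0.08 to 0.60, whereas OCS/LPS and RIP-OVAhi lie right of 0 for all 4 Rgs3 probe sets.

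Rgs10, Rgs14 and Rgs19, regulators of Gi proteins, were bright on every array, at 8.72 or above. Rgs10 read 11.38 and 11.68 on the naive arrays, 11.36 and 11.51 for RIP-OVAhi, 10.99 and 10.69 for OCS/LPS and 10.77 for Rag. Both OCS/LPS arrays and the Rag array were below the other 4. Against naive, Rgs10 fell by 0.69 in OCS/LPS (SE 0.17, 95% interval -1.10 to -0.27, limma adjusted p = 0.0268), but the call held without only 1 of the 6 arrays of the duplicated groups, naive replicate 1. Without the others the adjusted p was 0.0570 to 0.160. RIP-OVAhi exceeded OCS/LPS by 0.59 (limma adjusted p = 0.164) and Rag was below naive by 0.76 (limma adjusted p = 0.143), neither past the threshold. The latter passed without naive replicate 1 (0.0410), and RIP-OVAhi against Rag, 0.67 apart, passed without either naive array (0.0427).

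Rgs14, which also carries domains that bind inactive Gi alpha and small GTPases, read 9.08 and 8.72 on the naive arrays, 9.05 and 8.96 for RIP-OVAhi, 8.98 and 8.86 for OCS/LPS and 9.07 for Rag. All groups lay within the 0.36 that parts the naive arrays. The difference was 0.11 between RIP-OVAhi and naive (95% interval -0.28 to 0.50, limma adjusted p = 0.649) and 0.02 between OCS/LPS and naive (95% interval -0.37 to 0.41, limma adjusted p = 0.933).

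Rgs19, known as GAIP, read 11.16 and 11.36 on the naive arrays, 10.97 and 11.04 for RIP-OVAhi, 11.24 and 11.12 for OCS/LPS and 11.16 for Rag. The RIP-OVAhi arrays were the lowest by a small margin, 0.26 under naive, and this did not pass the test (95% interval -0.58 to 0.07, limma adjusted p = 0.197). Its second probe set read 11.16 and 11.65 on the naive arrays, 10.67 and 10.79 for RIP-OVAhi, 10.97 and 10.96 for OCS/LPS and 10.96 for Rag. There the fall of RIP-OVAhi from naive, 0.67, passed in the fit of all probe sets (limma adjusted p = 0.0471), so the probe sets of Rgs19 disagreed on that call. None of the other comparisons of Rgs14 or Rgs19 passed in the fit of genes.

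**Figure D3:**
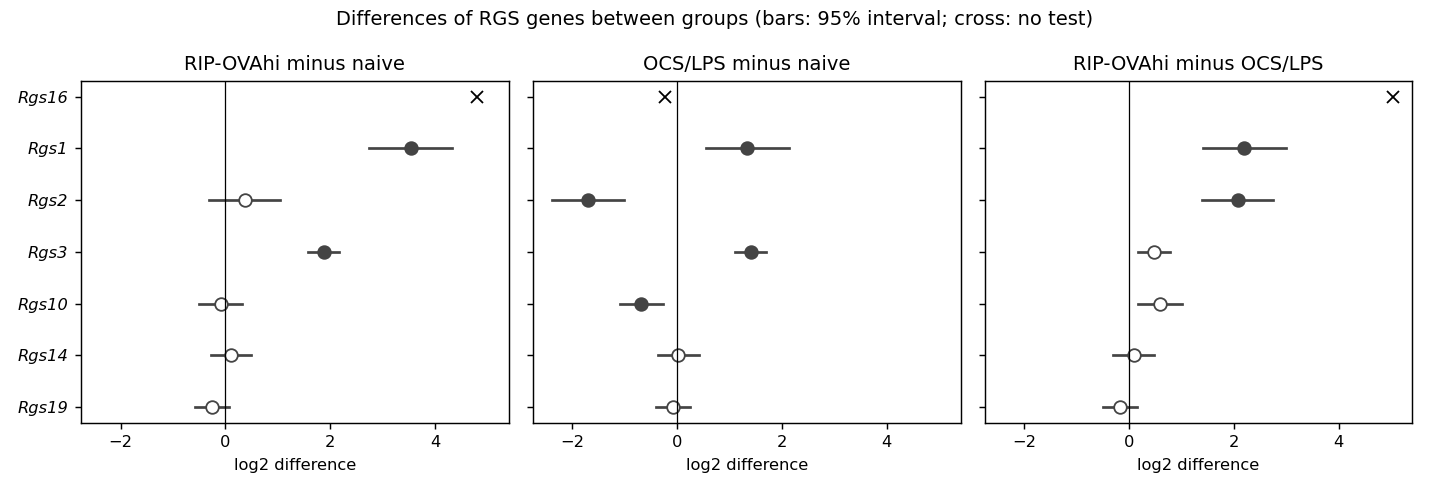
Log2 differences (horizontal axis) of 7 RGS genes (vertical axis) between RIP-OVAhi and naive, OCS/LPS and naive, and RIP-OVAhi and OCS/LPS; bars are 95% intervals of the limma fit, filled points passed an adjusted p under 0.05, open points did not, and crosses mark Rgs16, which was not tested. Rgs1 and Rgs3 are filled in both comparisons with naive, Rgs2 lies at 0.36, -1.71 and 2.07 in the 3 panels, and Rgs14 and Rgs19 are open in each.

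Rgs18, a regulator best known from platelets and their precursors, was near background on every array, at 2.73 to 2.84 for 1 probe set and 2.65 to 2.71 for the other. Of 10 platelet genes, 8 were near background on every array. Ppbp was at 5.13 and 6.13 in naive and at 2.24 to 4.93 elsewhere. Itgb3, an integrin subunit, ran the other way, at 5.02 and 5.03 on the naive arrays, 6.31 and 6.70 for RIP-OVAhi and 5.72 to 5.84 elsewhere. The summed level of the 10 platelet genes was 6.95 to 7.36 for naive, 7.04 to 7.30 for RIP-OVAhi, 6.81 to 7.05 for OCS/LPS and 6.79 for Rag. Of 14 further RGS genes listed, 11 were on the array under a single symbol and none passed the filter. Among these, 10 genes with 23 probe sets lay between 1.69 and 3.91 everywhere. Rgs13 and Rgs8, the neighbours of Rgs1 and Rgs16, were at 2.70 to 2.84 and 2.13 to 2.18. The exception was Rgs11, at 5.74 and 4.81 on the naive arrays, 3.08 and 3.79 for RIP-OVAhi, 2.73 and 2.79 for OCS/LPS and 4.54 for Rag.

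Transcripts of other cells differed between the groups, and their part in the RGS results was not tested. Rgs1 and Rgs2 are also known from B and myeloid cells. The B cell markers Cd79a, Pax5 and Blnk were near background on all 7 arrays, at 1.92 to 2.24. Cd22 and Cd79b, also in that list of 6, were above that level on some or all arrays: Cd22 was at 3.59 to 4.28 in naive and Rag, 6.53 and 7.03 in RIP-OVAhi and 8.20 and 8.55 in OCS/LPS, and Cd79b was at 6.84 to 8.43 on all arrays. Ms4a1, the last of the list, was at 4.73 and 5.72 on the naive arrays, 3.74 and 3.98 for RIP-OVAhi, 4.92 and 6.67 for OCS/LPS and 3.74 for Rag, so it was lowest in RIP-OVAhi and Rag. The summed level of the 6 genes was 7.59 to 8.59 for naive, 8.47 to 8.98 for RIP-OVAhi, 9.30 to 9.70 for OCS/LPS and 7.32 for Rag. The 9 myeloid genes had no member at log2 5 on the RIP-OVAhi arrays, where the highest value was 4.54. On both arrays of a spleen group, 2 of 9 reached that level in naive and 3 of 9 in OCS/LPS, and 5 of 9 did so on the Rag array, Lyz1 among them at 7.40 to 8.67 against 2.94 and 3.36 in RIP-OVAhi. The summed myeloid level was 8.46 to 9.12 for naive, 6.37 to 6.59 for RIP-OVAhi, 8.36 to 8.88 for OCS/LPS and 10.00 for Rag. Of the 5 MHC class II genes, 1 reached log2 5 on both RIP-OVAhi arrays, against 4 in naive and 5 in OCS/LPS and Rag. The summed level of 3 erythroid genes was 6.87 in Rag and 4.18 to 5.41 on the other arrays. The 4 CD4 and regulatory T cell genes were at most 3.47 on any array.

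Counted together, 2 of the 6 tested RGS genes other than Rgs16 passed between RIP-OVAhi and naive, both higher (Rgs1 and Rgs3). Over all 8203 genes, 29.6% passed that comparison, 18.1% higher and 11.6% lower, so the count is close to the background. The median difference of the 6 was 0.24, against 0.06 over all genes. Between OCS/LPS and naive, 4 of 6 passed, Rgs1 and Rgs3 higher and Rgs2 and Rgs10 lower, beside 32.9% of all genes (20.5% higher and 12.3% lower), with medians of -0.03 and 0.08. The count there was 1 to 4 when single arrays were left out. Between RIP-OVAhi and OCS/LPS, 2 of 6 passed, Rgs1 and Rgs2, both higher in RIP-OVAhi, beside 2.91% of all genes (1.61% higher and 1.30% lower). The median was 0.53 against -0.05, and the count fell to 1 without RIP-OVAhi replicate 1 and to 0 without RIP-OVAhi replicate 2 or either OCS/LPS array. These comparisons share arrays, so their counts are not independent.

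None of the 6 passed between Rag and naive by limma, where 2.73% of all genes did (2.15% higher and 0.585% lower). Of the 6, 3 (Rgs2, Rgs3 and Rgs10) had an unadjusted p under 0.05. No share of all genes at that level is given here, so the 3 are not read as a result. Without naive replicate 1, Rgs3 and Rgs10 passed, with adjusted p of 0.0496 and 0.0410. The medians were 0.03 for the 6 genes and 0.04 for all. Between RIP-OVAhi and Rag, 2 of 6 passed, both higher (Rgs1 and Rgs3), beside 16.7% of all genes (9.84% higher and 6.90% lower), with medians of 0.97 and 0.02. Between OCS/LPS and Rag, Rgs3 alone of the 6 passed, beside 18.1% of all genes (11.2% higher and 6.90% lower), with medians of 0.05 and 0.06. With 1 Rag array, its spread was assumed to equal that of the other groups.

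The rest of the pathway was read from lists of its parts. Of 31 heterotrimeric G protein subunit genes on the array, 10 were tested. Against naive, 5 were higher in RIP-OVAhi and OCS/LPS had 6, with none lower in either. Of all genes tested, 18.1% were higher and 11.6% lower in RIP-OVAhi, and 20.5% and 12.3% in OCS/LPS. The median differences of the 10 were 0.54 and 0.62, against 0.06 and 0.08 over all genes. The RIP-OVAhi count was 1 without either RIP-OVAhi array and 3 without either OCS/LPS array. The OCS/LPS count was 0 without either OCS/LPS array and 3 without either RIP-OVAhi array. Gnb4, a beta subunit, was at 6.12 and 6.31 in naive and 7.15 and 7.45 in RIP-OVAhi, a rise of 1.09 (limma adjusted p = 0.00457) that held without each array in turn. It read 6.64 on both OCS/LPS arrays and 5.59 in Rag. Gng2, a gamma subunit, was 1.87 higher in RIP-OVAhi (limma adjusted p = 0.0120) and 1.96 higher in OCS/LPS (limma adjusted p = 0.00928) than in naive. The RIP-OVAhi call was lost without RIP-OVAhi replicate 1 (0.0988) or 2 (0.0674), and the OCS/LPS call without OCS/LPS replicate 1 (0.0604) or 2 (0.0807). The beta subunit Gnb2 was 0.68 higher in RIP-OVAhi (limma adjusted p = 0.00995) and 0.71 higher in OCS/LPS (limma adjusted p = 0.00781), each lost without either array of that group (0.0829 and 0.0691, and 0.0538 and 0.0663). Between RIP-OVAhi and OCS/LPS, none of the 10 passed by limma, and 2 had an unadjusted p under 0.05. No share of all genes at that level is given here, so the 2 are not read as a result.

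Of 32 G protein coupled receptor genes on the array, 20 were tested, and they moved in both directions. Against naive, 5 were higher and 8 lower in RIP-OVAhi, and 4 were higher and 8 lower in OCS/LPS, with medians of -0.40 and -0.36. The shares over all genes were 18.1% higher and 11.6% lower in RIP-OVAhi, and 20.5% and 12.3% in OCS/LPS. In RIP-OVAhi the higher count was 3 without RIP-OVAhi replicate 1, and the lower count was 3 without that array and 2 without RIP-OVAhi replicate 2. In OCS/LPS the lower count was 4 without OCS/LPS replicate 2. Cxcr5, the receptor for the follicle chemokine CXCL13, was at 4.35 and 4.78 on the naive arrays, 9.29 and 9.20 for RIP-OVAhi, 8.69 and 8.44 for OCS/LPS and 4.73 for Rag. The naive and Rag arrays were near background. Against naive it was higher by a measured 4.68 in RIP-OVAhi (limma adjusted p = 5.31e-05) and passed in OCS/LPS too (limma adjusted p = 6.21e-05). Against log2 5, the rises were at least 19.0-fold and at least 11.8-fold. Cxcr3, a receptor for interferon-induced chemokines, was at 8.27 and 8.32 on the naive arrays, 11.33 and 11.31 for RIP-OVAhi, 12.41 and 12.08 for OCS/LPS and 11.13 for Rag. It rose over naive in all 3 divided groups, by 3.03, 3.95 and 2.84 (limma adjusted p = 9.73e-05, 3.11e-05 and 0.00202). Ptger2, a receptor for prostaglandin E2, rose over naive by 2.93 in RIP-OVAhi (limma adjusted p = 0.000148) and by 1.96 in OCS/LPS (limma adjusted p = 0.000576). The calls for Cxcr3, and for Ptger2 in RIP-OVAhi, held without each array in turn.

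Of the receptors that fell, Ccr9, a gut-homing receptor, was at 10.51 and 10.62 on the naive arrays, 7.80 and 7.92 for RIP-OVAhi, 2.98 and 4.86 for OCS/LPS and 6.06 for Rag. Every array of a divided group was below both naive arrays, and OCS/LPS was near background. It fell from naive by a measured 6.65 in OCS/LPS (limma adjusted p = 0.000609), at least 47.3-fold against log2 5, and this call held without each array in turn. It also fell by 2.71 in RIP-OVAhi (limma adjusted p = 0.0166), lost without either RIP-OVAhi array (0.112 and 0.109) or naive replicate 1 (0.0508) or 2 (0.0555). Against naive, Ccr9 fell by 4.51 in Rag (limma adjusted p = 0.0317), lost without naive replicate 2 (0.0882) or either RIP-OVAhi array (0.136). Cxcr6, the receptor for CXCL16, fell by 2.10 in OCS/LPS (limma adjusted p = 0.00261), from 10.81 and 11.35 to 8.74 and 9.23, and held without each array.

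Between RIP-OVAhi and OCS/LPS, 2 of the 20 receptors were higher and 1 lower, beside 1.61% and 1.30% of all genes. The median was 0.19, against -0.05 over all genes. In Ccr9, RIP-OVAhi stood a measured 3.94 above OCS/LPS, at least 7.25-fold against log2 5 (limma adjusted p = 0.0259), a call lost without RIP-OVAhi replicate 1 (0.243) or 2 (0.245). This is for the Ccr9 probe set with the highest mean. Another had means of 4.74 in RIP-OVAhi and 3.06 in OCS/LPS, both near background. The remaining Ccr9 probe sets had nearly equal means in these groups, all near background at 2.22 to 3.98. Ptger2 was higher by 0.98 (limma adjusted p = 0.0404) and Cxcr3 was lower by 0.92 (limma adjusted p = 0.0354). Each of these last calls was lost without any 1 of the 4 arrays compared (adjusted p 0.122 to 0.321 for Ptger2 and 0.128 to 0.293 for Cxcr3), and with replicate number as a block the p for Cxcr3 was 0.0517.

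Beyond the receptors, 3 of 7 receptor kinase and arrestin genes on the array were tested, with medians of 0.18 in RIP-OVAhi and 0.23 in OCS/LPS against naive. Arrb1, an arrestin that ends receptor signalling, was lower than naive by 1.02 in RIP-OVAhi (limma adjusted p = 0.0173) and by a measured 1.53 in OCS/LPS (limma adjusted p = 0.00419), where it was near background, a fall of at least 2.47-fold against log2 5. The RIP-OVAhi call was lost without RIP-OVAhi replicate 1 (0.0981) or 2 (0.122). Of 15 other regulators of G alpha tested, 2 were higher and 4 lower in RIP-OVAhi than in naive, and 1 was higher and 3 lower in OCS/LPS, with medians of -0.16 and -0.06. Over all genes, 18.1% were higher and 11.6% lower in RIP-OVAhi, and 20.5% and 12.3% in OCS/LPS. In RIP-OVAhi the higher count was 1 without RIP-OVAhi replicate 1 and the lower count was 2 without RIP-OVAhi replicate 2. In OCS/LPS the lower count fell without either OCS/LPS array and rose without naive replicate 1. No share of all genes is given here for those fits. Gpsm2, which binds inactive Gi alpha and orients the mitotic spindle, rose by 1.85 and 2.53 (limma adjusted p = 0.00440 and 0.00123). Axin2, which carries an RGS-like domain and acts in Wnt signalling, was at 7.06 and 6.97 on the naive arrays, 5.50 and 5.23 for RIP-OVAhi, 6.65 and 6.74 for OCS/LPS and 7.62 for Rag. It fell by 1.66 in RIP-OVAhi against naive (limma adjusted p = 0.000723) and its difference from OCS/LPS was -1.33 (limma adjusted p = 0.0107), the latter lost without any 1 of the 4 arrays compared (0.0783 to 0.139).

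Of 16 effector genes tested, 1 was higher and 3 were lower in RIP-OVAhi than in naive, and 2 were higher and 2 lower in OCS/LPS. Among all genes tested, 29.6% passed against naive in RIP-OVAhi (18.1% higher and 11.6% lower). In OCS/LPS 32.9% did (20.5% higher and 12.3% lower), so the effector counts do not stand out. Without naive replicate 2, the lower counts rose in both groups. The higher count rose in RIP-OVAhi without either naive array and fell in OCS/LPS without either OCS/LPS array. No share of all genes is given here for those fits, so these changes are not read as a result. Pik3cg, the catalytic subunit of the phosphoinositide kinase that beta-gamma subunits activate, rose by 1.48 in RIP-OVAhi and 1.83 in OCS/LPS (limma adjusted p = 0.000578 and 0.000216). The adenylyl cyclase Adcy6 passed the filter through its naive and Rag arrays alone, so its fall is given as a description, though the counts include it. It fell by a measured 2.02 and 2.39, reaching 4.25 to 4.99 in these groups, which is near background. The fall was at least 3.30-fold against log2 5. The cyclic AMP phosphodiesterase Pde4d fell by 1.44 and 1.98 (limma adjusted p = 0.00129 and 0.000315). None of the 16 passed between RIP-OVAhi and OCS/LPS by limma, and 5 had an unadjusted p under 0.05, with a median difference of 0.14. The share of all genes at that unadjusted level is not given here, so the 5 are not read as a result.

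**Figure D4:**
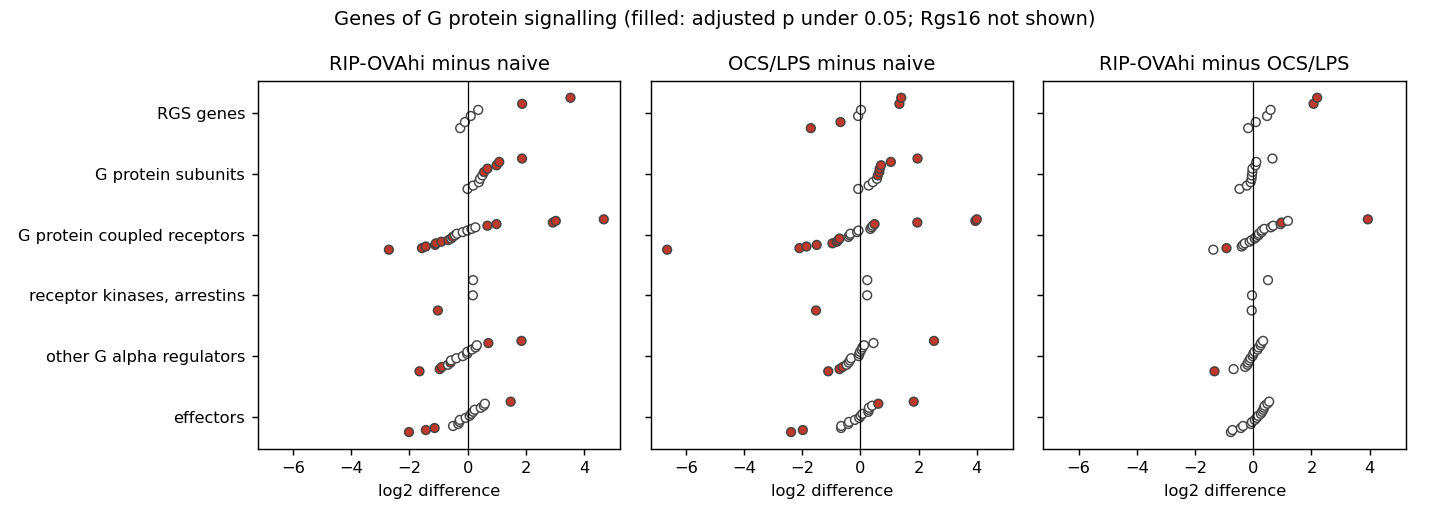
Log2 differences (horizontal axis) of the tested genes of 6 lists of G protein signalling (vertical axis, 1 point per gene, spread vertically by rank) in 3 comparisons; filled points passed an adjusted p under 0.05 in limma and Rgs16 is left out. G protein subunits lie right of 0 in most cases against naive and around 0 between RIP-OVAhi and OCS/LPS, where Rgs1, Rgs2, Ccr9, Ptger2, Cxcr3 and Axin2 are the filled points.

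The genes whose values followed those of Rgs16 most closely over the 7 arrays were Sphk2, Nagk, Nrn1, Gpm6b and Bin1, with Pearson r of 0.995, 0.994, 0.993, 0.985 and 0.983. All 7 points share 1 normalization, and the correlation turns on the 2 RIP-OVAhi arrays. Nrn1, which encodes neuritin, was at 7.73 and 7.16 in RIP-OVAhi and at most 3.03 elsewhere, and Gpm6b, a membrane glycoprotein gene, was at 7.01 and 7.49 against 3.86 to 4.48. Sphk2, which encodes a sphingosine kinase, was at 7.10 and 7.09 against 6.98 on each of the other 5 arrays. Nagk and Bin1 also moved by small amounts, from 6.10 to 6.13 up to 6.48 and 6.43 for Nagk, and from 8.84 to 8.88 up to 9.07 and 9.03 for Bin1. A high correlation here thus came with rises of very different size.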

How the data were processed

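The deposited table holds log2 expression of 45101 probe sets on 7 Affymetrix arrays, made by the authors with GCRMA per the submitters' processing notes, with no version named there. RNA from sorted cells went through a 2-cycle amplification before hybridisation, per the labels' protocols. The deposited log2 values were used with no further normalization. Of the probe sets, 34958 had 1 symbol in the platform annotation, 932 several and 9211 none. For each of 18194 genes the probe set of highest mean was kept, and the 8203 with log2 of at least 5 on at least 2 arrays were tested.

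All arrays were fitted together with limma 3.58.1 (lmFit, then eBayes, in R 4.3.3; 1 mean per group, 3 residual degrees of freedom, prior 2.93). P-values were two-sided, adjusted by Benjamini-Hochberg over all genes of a comparison, and called under 0.05. Sex-linked transcripts differ between the 2 arrays of each duplicated group, so their pools came from different mice. Whether these were separate experiments is not labelled, and p-values cover the spread between these arrays. Precision is limited by the number of arrays. The script was tested on simulated data.

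Members and lists were chosen with earlier results of these data known. All members were named. Other genes were named from the called ones with the largest differences per list and comparison (at most 4 each), plus the 5 closest to Rgs16. A matching list for genes that rise in both RIP-OVAhi and OCS/LPS was not made, because it needed 3 such members and 2 were found. Over all genes, same-numbered arrays deviated together from their group means (r = 0.348 for naive and RIP-OVAhi, 0.132 for naive and OCS/LPS, 0.325 for RIP-OVAhi and OCS/LPS). Over autosomal genes r was 0.196, -0.06 and -0.02, so this did not hold there for the pairs with OCS/LPS. The main fit was not paired. The numbers served as pairs only in differences within each number and in the replicate block, from the data and not the labels. Alternatives covered centring, filters, probe set choice, the arrays fitted, the replicate block, the spread estimate, a 2-fold minimum and leaving out each array.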

Additional observations from a re-analysis of the deposited data

How the results depend on the processing

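The counts of RGS genes called other than Rgs16 kept within 1.5 times of those given under median centring, a filter at log2 7, the mean of a gene's probe sets, every probe set tested, an intensity trend and a robust spread. With no filter, the count became 1 for OCS/LPS against naive, 0 for RIP-OVAhi against OCS/LPS and 1 for RIP-OVAhi against Rag. With only the 2 groups compared in the fit, which leaves fewer arrays, it became 2 for OCS/LPS against naive, 0 for RIP-OVAhi against Rag and 0 for OCS/LPS against Rag. With a 2-fold minimum it became 0 for OCS/LPS against Rag. Leaving out single arrays gave 2 to 2 calls for RIP-OVAhi against naive, 1 to 4 for OCS/LPS against naive, 0 to 2 for RIP-OVAhi against OCS/LPS, 0 to 2 for Rag against naive, 1 to 3 for RIP-OVAhi against Rag and 0 to 2 for OCS/LPS against Rag. For Rgs16, the mean of its probe sets gave smaller differences, 2.85 from naive, 2.95 from OCS/LPS and 3.04 from Rag, because 1 of the 3 showed no signal. Leaving out single arrays gave 4.48 to 5.11, 4.93 to 5.15 and 5.20 to 5.28.

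With the replicate block, which pairs arrays of the same number, the count of calls stayed at 2 for RIP-OVAhi against naive, 4 for OCS/LPS against naive and 2 for RIP-OVAhi against OCS/LPS, and it changed no call of an RGS gene. The block turned the sign of differences that did not pass either way, to 0.033 for Rgs14 between RIP-OVAhi and Rag and to -0.0021 for Rgs19 between OCS/LPS and Rag. Leaving out 1 array also turned signs of differences that did not pass. For RIP-OVAhi against naive, the range was -0.047 to 0.77 for Rgs2, -0.24 to 0.058 for Rgs10 and -0.076 to 0.29 for Rgs14. For OCS/LPS against naive, it was -0.16 to 0.20 for Rgs14 (-0.040 without OCS/LPS replicate 1) and -0.18 to 0.025 for Rgs19. For OCS/LPS against Rag, it was -0.074 to 0.22 for Rgs10 and -0.031 to 0.081 for Rgs19, and for Rag against naive it was -0.014 to 0.35 for Rgs14. Snx13, a listed regulator higher in RIP-OVAhi than in Rag, was at -0.093 with the mean of its probe sets. Over all alternatives, 519 differences of RGS genes kept their direction and side of the threshold, 36 lost a call, 10 gained one and 11 changed sign.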
